A study of Homo sapiens with 12 samples.

Results

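The genes described here are 38 members of glycolysis and of the transcriptional response to low oxygen, measured in 2 human cancer cell lines after an siRNA against KDM3A. Each gene was represented by the probe set annotated to that gene alone that had the highest mean signal over the 12 arrays. By this rule 36 of the 38 members had a probe set, among 19775 genes in all that had a probe set of their own. All 36 passed the filter on dim probe sets and were tested with 14061 genes. CA9 and SLC16A3 were named by no probe set in the annotation used and were not analysed here.

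The arrays fell into 6 groups of 2 arrays, each a line with 1 siRNA. SW780, a bladder carcinoma line, and A549, a lung adenocarcinoma line, each received a duplex named siKDM3A or a control duplex, siFFluc (firefly luciferase) or siEGFP (enhanced green fluorescent protein). All duplexes were given at 100 nM with lipofectamine for 24 h, so every group shared the transfection, and no untransfected cells were analysed here. SW780 was grown in Leibovitz L-15 and A549 in RPMI1640, each with serum, and the labels do not say which line had CO2. Leibovitz L-15 is made with galactose in place of glucose and is meant for use without added CO2. Line and medium therefore cannot be told apart in any comparison of SW780 with A549. Each tissue is represented by 1 line, and nothing in the labels says that the 2 arrays of a group came from separate cultures. The p-values then rest on the scatter within these pairs of arrays, some or all of which may be technical, and the number of arrays limits their precision. In such bulk samples, fewer cells of a type and less RNA per cell cannot be told apart.

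Glycolysis converts glucose to pyruvate in the cytosol, and lactate dehydrogenase turns pyruvate into lactate. When oxygen is low, prolyl hydroxylases such as EGLN1 lose activity and the HIF alpha subunits HIF1A and EPAS1 are no longer degraded. With their partner ARNT they then bind a short core sequence near genes for sugar uptake, glycolysis, blood vessel growth, mitophagy and collagen modification. KDM3A removes methyl groups from lysine 9 of histone H3. It is itself induced by HIF and is known as a cofactor at some HIF target genes. The labels mention no low oxygen treatment.

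Promoter sequences are shown for 5 members that the results turn on. They are ADM, which was higher with siKDM3A in both lines, BNIP3, which was higher with it in SW780, PFKFB4 and ENO2, which were lower with it in A549 or in SW780, and PLOD2, which differed between the control duplexes. Each runs from 250 bases before to 50 bases after the gene's start, 5′ to 3′ on the gene's strand, and comes from RefSeq on GRCh38.p14. Capitals mark the HIF core ACGTG and the related GCGTG on either strand, so that a match on the other strand reads CACGT or CACGC. In the order shown, the windows are ADM at chr11:10304823-10305122 (plus strand), BNIP3 at chr10:131981874-131982173 (minus strand), PFKFB4 at chr3:48556754-48557053 (minus strand), ENO2 at chr12:6914330-6914629 (plus strand) and PLOD2 at chr3:146161135-146161434 (minus strand).
ADM: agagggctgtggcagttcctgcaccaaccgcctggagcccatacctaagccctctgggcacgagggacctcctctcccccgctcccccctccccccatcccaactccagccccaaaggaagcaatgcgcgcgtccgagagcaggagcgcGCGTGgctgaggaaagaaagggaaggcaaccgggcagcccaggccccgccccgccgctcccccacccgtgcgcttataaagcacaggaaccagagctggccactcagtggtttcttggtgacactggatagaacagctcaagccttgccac
BNIP3: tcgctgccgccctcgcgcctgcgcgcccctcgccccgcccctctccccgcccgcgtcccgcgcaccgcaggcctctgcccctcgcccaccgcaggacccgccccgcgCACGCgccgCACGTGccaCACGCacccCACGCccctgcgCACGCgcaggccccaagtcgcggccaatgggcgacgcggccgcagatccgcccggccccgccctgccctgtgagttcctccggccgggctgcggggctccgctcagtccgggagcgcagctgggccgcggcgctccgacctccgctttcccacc
PFKFB4: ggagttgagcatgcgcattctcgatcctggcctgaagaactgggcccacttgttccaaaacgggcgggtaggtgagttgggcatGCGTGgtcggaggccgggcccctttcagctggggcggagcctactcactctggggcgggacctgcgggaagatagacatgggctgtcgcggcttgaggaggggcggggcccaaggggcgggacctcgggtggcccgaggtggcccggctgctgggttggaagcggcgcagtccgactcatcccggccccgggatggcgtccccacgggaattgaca
ENO2: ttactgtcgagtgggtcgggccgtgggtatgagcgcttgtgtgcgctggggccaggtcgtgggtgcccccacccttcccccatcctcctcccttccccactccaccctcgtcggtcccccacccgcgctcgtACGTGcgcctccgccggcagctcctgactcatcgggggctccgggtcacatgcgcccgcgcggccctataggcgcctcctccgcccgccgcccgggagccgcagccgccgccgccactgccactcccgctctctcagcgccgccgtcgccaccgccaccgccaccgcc
PLOD2: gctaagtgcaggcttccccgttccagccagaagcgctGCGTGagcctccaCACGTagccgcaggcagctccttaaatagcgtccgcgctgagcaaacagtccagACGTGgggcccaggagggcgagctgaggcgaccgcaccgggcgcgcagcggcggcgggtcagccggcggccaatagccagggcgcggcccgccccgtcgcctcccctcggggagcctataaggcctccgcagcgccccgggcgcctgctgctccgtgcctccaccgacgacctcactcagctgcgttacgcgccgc

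The ADM window held 0 copies of ACGTG and 1 of GCGTG, and so did the PFKFB4 window. BNIP3 had 2 copies of ACGTG and 4 of GCGTG, the ACGTG copies being the 2 strands of 1 palindrome, CACGTG. ENO2 had 1 copy of ACGTG and 0 of GCGTG, while PLOD2 had 2 copies of ACGTG and 1 of GCGTG. Windows were given for 34 of the 38 members, 61 windows with the alternative starts. ACGTG stood in 41.0% of these windows, against 21.4% of all 35116 windows of 300 bases, and GCGTG in 41.0% against 36.5%. Counted by gene over any of its windows, 21 of the 34 members (61.8%) held ACGTG, against 24.9% of all 27305 genes. For GCGTG the shares by gene were 61.8% against 40.6%. A gene with more windows has more chances of a match, and members such as HK1 and PFKM had 7 each. The shares by gene therefore also depend on the number of windows. Many of the members are on the list because they are known HIF targets, so these shares describe the list. A match is a description of letters and not a site, and a window without one says only that the letters are not there.

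Values are MAS5 signals on a linear scale, already scaled by the authors, and differences are in log2(signal + 16). Array medians ran from 50.3 to 59.1, and the 2 arrays of a group correlated at 0.982 to 0.989. The targeted gene KDM3A had signals of 197 and 223 with siKDM3A in SW780, against 359 and 433 with siFFluc and 409.8 and 373 with siEGFP. In A549 KDM3A had 692.5 and 712 with siKDM3A, against 1519 and 1437 with siFFluc and 1299.7 and 1307 with siEGFP. It fell by 0.86 in SW780 (SE 0.10, adjusted p = 2.74e-04) and by 0.97 in A549 (SE 0.10, adjusted p = 8.34e-05), to 53.3% and 50.5% of the control signal. SW780 carried bladder markers: 9 of 10 urothelial markers passed the filter and all 9 were higher than in A549, KRT13 by 7.95 and GATA3 by 5.08. Of 10 lung markers 5 passed the filter, and the defining NKX2-1, SFTPD, SLC34A2 and SCGB1A1 did not. The lung marker SFTPA1 was named by no probe set and was not measured. All 5 that passed differed between the lines on control arrays, 4 of them higher in A549. Of 7 fibroblast and 7 leukocyte markers, 4 and 3 passed the filter. The leukocyte genes PTPRC and CD3D did not, and CD68 was named by no probe set. On control arrays 3 of the 4 fibroblast and 2 of the 3 leukocyte markers were called lower in SW780 and 0 higher, against 38.8% of all genes called lower.

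Few members responded to siKDM3A in A549, and they did not lean to one side. Of the 36 members tested, 6 passed an adjusted p of 0.05 (limma with Benjamini-Hochberg adjustment over all genes), 2 higher and 4 lower. That is 16.7% of the members, against 11.7% of all 14061 genes (5.33% higher and 6.35% lower). The median log2 difference was -0.02 over the members and -0.02 over all genes. The higher genes were ADM, which encodes the vasodilator peptide adrenomedullin, and PFKFB3, whose enzyme makes fructose 2,6-bisphosphate, an activator of phosphofructokinase. The lower genes were PFKFB4, a related enzyme, VEGFA, the vascular growth factor, P4HA2, a subunit of collagen prolyl 4-hydroxylase, and PFKL, the liver type of phosphofructokinase. With each array scaled to its median instead, 5 members were higher and 1 was lower. Under that scaling the median of all genes was 0.08, with 1903 genes called higher and 539 lower, against 749 and 893 in the values as scaled by the authors. Against siEGFP alone 3 members were higher and 1 was lower, with a median of 0.04.

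ADM had signals of 10987 and 11090.3 with siKDM3A in A549, against 7369.9 and 8047 with siFFluc and 7610.1 and 8752 with siEGFP. Both siKDM3A arrays lay above all 4 control arrays, and the control groups overlapped each other. The difference was 0.48 ± 0.07 (SE, adjusted p = 6.80e-04), a 1.39-fold higher signal. PFKFB4 had 209.7 and 232 with siKDM3A, against 346 and 421 with siFFluc and 372 and 422 with siEGFP. Its knockdown arrays lay below every control array, with a difference of -0.78 ± 0.16 (SE, adjusted p = 0.00936). Without siKDM3A replicate 1 or replicate 2 the PFKFB4 difference was -0.71 or -0.84, with adjusted p = 0.108 or 0.0629. PFKFB3 had 5905 and 5791 with siKDM3A, against 4812 and 4872 with siFFluc and 4337 and 3836 with siEGFP. The knockdown arrays were the highest and the siEGFP arrays the lowest, without overlap. The difference of 0.39 ± 0.08 (SE, adjusted p = 0.00938) was 0.27 against siFFluc alone (adjusted p = 0.102). Leaving out siKDM3A replicate 1 or 2 gave PFKFB3 an adjusted p of 0.102 or 0.0842.

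VEGFA had 1997 and 2004 with siKDM3A in A549, against 2889 and 2659 with siFFluc and 2402 and 2192 with siEGFP. Every control array was above the knockdown arrays, and the siFFluc arrays were the highest. The difference was -0.33 ± 0.08 (SE, adjusted p = 0.0178), and -0.20 against siEGFP alone (adjusted p = 0.235). P4HA2 had 3214 and 3158 with siKDM3A, against 3890.0 and 4419.8 with siFFluc and 4022 and 4158 with siEGFP, and the knockdown arrays were the lowest. It differed by -0.37 ± 0.09 (SE, adjusted p = 0.0225). PFKL had 442 and 486 with siKDM3A, against 690.0 and 794 with siFFluc and 511 and 692 with siEGFP, with siEGFP replicate 1 close above the knockdown arrays. Its difference was -0.50 ± 0.14 (SE, adjusted p = 0.0376). In SW780 the same PFKL probe set differed by -0.30 (adjusted p = 0.202). A second PFKL probe set, nearly as bright, differed by -0.33 in A549 and by -0.46 in SW780 (limma unadjusted p = 0.0197 and 0.00296).

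The calls of VEGFA, P4HA2 and PFKL depended on single arrays. Without A549 siKDM3A replicate 1 or 2 the adjusted p was 0.130 or 0.128 for VEGFA, 0.132 or 0.167 for P4HA2, and 0.255 or 0.136 for PFKL. VEGFA also reached 0.0511 without siEGFP replicate 1 and 0.0597 without siFFluc replicate 1. P4HA2 reached 0.0599 without siEGFP replicate 2 and 0.0740 without siFFluc replicate 2. For PFKL the values were 0.102 without siEGFP replicate 2, 0.0537 without siFFluc replicate 1 and 0.105 without siFFluc replicate 2. Leaving out any siEGFP or siKDM3A array of SW780, which enter through the shared spread, gave PFKL between 0.0508 and 0.0521.

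The 30 members not called in A549 had differences from -0.46 (ALDOC, an aldolase) to 0.51 (SLC2A3, a glucose transporter). All 6 lower glycolysis genes, PGK1, PGAM1, ENO1, ENO2, PKM and LDHA, lay between -0.10 and -0.02, with 0 called by limma and 0 at an unadjusted p under 0.05, where 3575 of all 14061 genes were. A dimmer probe set of PGK1 differed by -0.34 (unadjusted p = 1.91e-04). HIF1A, EPAS1, EGLN1 and EGLN3, the subunits and oxygen sensors, lay between -0.11 and 0.07, with 0 called and 0 at an unadjusted p under 0.05. Their dimmer probe sets went further, with 0.27 and 0.34 for EGLN1 (unadjusted p = 0.00386 and 0.00179), -0.63 for EGLN3 (0.00167) and -0.40 for EPAS1 (0.0192). Both siKDM3A arrays lay above all 4 control arrays for 6 members and below them for 10, where 17% and 19.9% of all genes did so.

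In SW780 the lower members were mostly glycolytic enzymes when both controls were used, but not against siEGFP alone. Of the 36 members 9 were called, 2 higher and 7 lower, which is 25% of the members against 11.8% of all genes (5.68% higher and 6.15% lower). The median difference was -0.11 over the members and 0.03 over all genes. With the SW780 arrays fitted alone, 4 members were called, 2 higher and 2 lower. Against siEGFP alone 6 members were called, 4 higher (ADM, BNIP3, PFKFB3 and EGLN1) and 2 lower (ENO2 and PLOD2), and the medians were -0.01 over the members and 0.02 over all genes. The higher genes were ADM and BNIP3, a mitochondrial outer membrane protein that acts in mitophagy. Of the 9 upper glycolysis genes 4 fell and 0 rose. These were HK1, hexokinase, GPI, glucose-6-phosphate isomerase, PFKP, the platelet type of phosphofructokinase, and ALDOA, aldolase. By limma 5 of the 9 had an unadjusted p under 0.05, where 3618 of 14061 genes did. Of the 6 lower glycolysis genes 2 fell, ENO2, the neuronal type of enolase, and PKM, pyruvate kinase. P4HA1, a collagen prolyl 4-hydroxylase subunit, was the remaining lower gene.

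ADM had signals of 5844 and 5426 with siKDM3A in SW780, against 4229 and 4496 with siFFluc and 4049.8 and 4053.5 with siEGFP. As in A549, the knockdown arrays were above every control array. The difference was 0.42 ± 0.07 (SE, adjusted p = 0.00197), a 1.34-fold higher signal. BNIP3 had 737 and 664.5 with siKDM3A, against 414.5 and 487 with siFFluc and 520.2 and 456 with siEGFP. Its knockdown arrays also lay above all controls, by 0.56 ± 0.08 (SE, adjusted p = 9.73e-04), 1.48-fold. In A549 BNIP3 had 8040.2 and 7452.5 with siKDM3A, against 7336 and 7452 with siFFluc and 7159.8 and 7005 with siEGFP. There the difference was 0.10 ± 0.08 (SE, adjusted p = 0.523), and the lower knockdown array was level with the highest control. A second BNIP3 probe set gave 0.56 in SW780 and 0.36 in A549 (limma unadjusted p = 4.60e-05 and 0.00207). The ADM calls in both lines and the BNIP3 call in SW780 held in all 23 alternatives tried.

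PKM had 6182 and 4813.5 with siKDM3A in SW780, against 16570.2 and 9052 with siFFluc and 8065.5 and 7888 with siEGFP. The knockdown arrays were below every control array, and siFFluc replicate 1 stood far above the other 3 controls. The difference was -0.86 ± 0.17 (SE, adjusted p = 0.00646), and -0.64 without that siFFluc array (adjusted p = 8.13e-04). It was -0.55 against siEGFP alone (adjusted p = 0.128) and -0.68 without siKDM3A replicate 2 (adjusted p = 0.102). A dimmer PKM probe set differed by 0.00 in SW780. GPI had 8392.5 and 7673 with siKDM3A, against 13012 and 10926 with siFFluc and 9832 and 9315 with siEGFP. The groups of GPI did not overlap, with siFFluc the highest and the knockdown the lowest. Its difference was -0.41 ± 0.07 (SE, adjusted p = 0.00288), against -0.25 with siEGFP as the only control (adjusted p = 0.0932). Without siKDM3A replicate 2 the adjusted p of GPI was 0.0508.

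ENO2 was dim in SW780, with 24.4 and 28.5 with siKDM3A, against 50.2 and 51.7 with siFFluc and 63.5 and 63.2 with siEGFP. The groups did not overlap, but the knockdown signals were below the filter level of 33.6, so the fold depends on the 16 that was added. The difference was -0.78 ± 0.14 (SE, adjusted p = 0.00320), and its adjusted p was 0.177 when the SW780 arrays were fitted alone. In A549, where ENO2 was bright at 875 and 872 with siKDM3A, against 1105.5 and 985 with siFFluc and 835.5 and 848.5 with siEGFP, the groups overlapped and the difference was -0.10 (adjusted p = 0.723). PFKP had 4582 and 5211 with siKDM3A in SW780, against 8169.6 and 6126 with siFFluc and 6203 and 5888 with siEGFP, and the knockdown arrays were the lowest. It differed by -0.42 ± 0.10 (SE, adjusted p = 0.0134), against -0.31 with siEGFP alone (adjusted p = 0.129) and -0.33 without siKDM3A replicate 1 (adjusted p = 0.160). A dim second PFKP probe set gave 0.40, and the mean over both gave -0.01. P4HA1 had 828 and 881 with siKDM3A, against 1147 and 1059 with siFFluc and 1078 and 1055 with siEGFP, without overlap. Its difference was -0.34 ± 0.08 (SE, adjusted p = 0.0128), and the adjusted p was 0.124 or 0.0511 without siKDM3A replicate 1 or 2.

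HK1 and ALDOA differed from the siFFluc arrays more than from the siEGFP arrays. HK1 had 3290.4 and 3055 with siKDM3A, against 5505 and 4348 with siFFluc and 3414 and 3178 with siEGFP. The knockdown and siEGFP arrays overlapped. HK1 differed by -0.34 from both controls together (adjusted p = 0.0249) and by -0.05 from siEGFP alone (adjusted p = 0.822). ALDOA had 20227 and 17802 with siKDM3A, against 28616 and 24841.5 with siFFluc and 20295 and 18283 with siEGFP, again overlapping siEGFP. ALDOA differed by -0.26 from both controls (adjusted p = 0.0441) and by -0.02 from siEGFP alone (adjusted p = 0.923). Without SW780 siEGFP replicate 1, siKDM3A replicate 1 or siKDM3A replicate 2, HK1 had an adjusted p of 0.0771, 0.0819 or 0.195. ALDOA had 0.115, 0.0785 and 0.344 without SW780 siEGFP replicate 1, siFFluc replicate 1 and siKDM3A replicate 2, and 0.0594 to 0.0754 without any one A549 array.

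The brightest probe sets themselves differed among the SW780 arrays. The median of the 500 brightest was 26220.1 and 23634 with siKDM3A, 29006 and 26586 with siFFluc, and 23685 and 21077 with siEGFP, while all 6 A549 arrays lay between 20440.0 and 21137. Their order in SW780, with siFFluc the highest, was that of PKM, GPI, HK1 and ALDOA on the control arrays. Within the siKDM3A pair too, replicate 1 was above replicate 2 for the 500 brightest and for each of these genes. The place of the siKDM3A arrays among the controls differed. Each of these genes was lowest on siKDM3A replicate 2, whereas the 500 brightest were lowest on siEGFP replicate 2. The cause was not tested. Under quantile normalization, which gives every array the same distribution, the members called in SW780 were 3 higher and 8 lower, and HK1, GPI, PFKP, ALDOA, ENO2 and PKM were all still past the threshold. Both siKDM3A arrays lay above all 4 control arrays for 5 members and below them for 6, where 15.3% and 13.3% of all genes did so. The 27 members not called had differences from -0.32 (NDRG1) to 0.47 (ANKRD37). By limma 0 of the 4 subunits and sensors HIF1A, EPAS1, EGLN1 and EGLN3 were called, and 1 had an unadjusted p under 0.05.

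**Figure D1:**
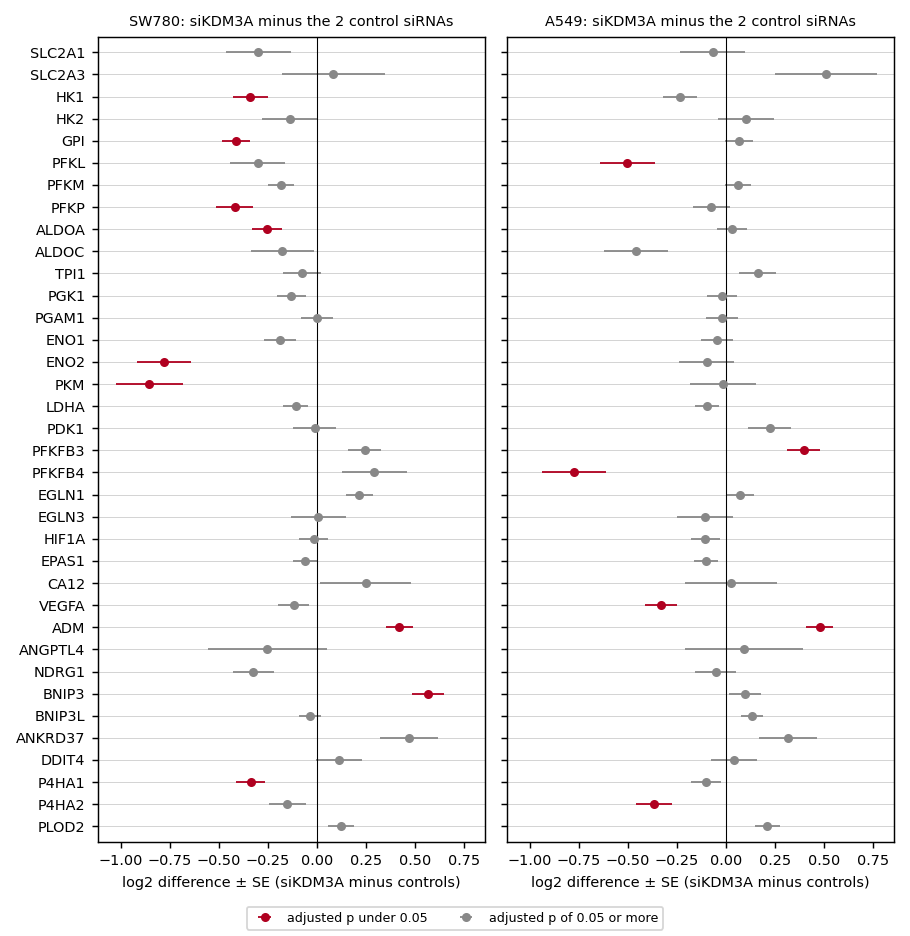
Difference of siKDM3A from the controls for the 36 members, SW780 on the left and A549 on the right. The x axis is the difference in log2(signal + 16), points are the estimates, bars are 1 SE, and colour marks the calls at an adjusted p of 0.05. ADM lies to the right of 0 in both lines, BNIP3 is called in SW780, and PFKFB4 lies on opposite sides of 0.

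The responses of the lines were then compared directly, as the SW780 difference minus the A549 difference. It was past the threshold for 2 of 36 members, against 2.75% of all genes (1.78% higher and 0.974% lower). GPI differed by -0.48 ± 0.10 (SE, adjusted p = 0.0325). On A549 arrays it had 12489 and 12499.9 with siKDM3A, against 12154 and 12162 with siFFluc and 11409 and 12036 with siEGFP. There the knockdown arrays were the highest, by 0.07 (adjusted p = 0.636), where in SW780 they were the lowest. PFKFB4 differed by 1.07 ± 0.23 (SE, adjusted p = 0.0339), with a difference of 0.29 in SW780 (adjusted p = 0.293) beside the -0.78 in A549. Its SW780 signals were 133.3 and 132 with siKDM3A, against 98.3 and 110.0 with siFFluc and 121 and 94.4 with siEGFP, so the direction of the gap was opposite in the lines. Neither call held against siEGFP alone (adjusted p = 0.195 for GPI and 0.0932 for PFKFB4). GPI had an adjusted p from 0.0533 to 0.159 when any one siKDM3A array of either line was left out, and from 0.0665 to 0.0725 without A549 siEGFP replicate 1, either A549 siFFluc array or SW780 siEGFP replicate 1. PFKFB4 had 0.0899 to 0.140 without any one siKDM3A array, and 0.0607 to 0.0793 without any one A549 control array or SW780 siEGFP replicate 2.

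BNIP3 differed between the responses by 0.47 ± 0.12 (SE, adjusted p = 0.0526), PKM by -0.84 ± 0.24 (SE, adjusted p = 0.0831) and ENO2 by -0.68 ± 0.19 (SE, adjusted p = 0.0831), none past the threshold. For ADM the difference of the responses was -0.06, with a 95% interval from -0.27 to 0.15 (adjusted p = 0.810). Fitted with the replicate number as a block, PKM and ALDOA also passed, with adjusted p = 0.0411 and 0.0475, for 4 members in all.

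**Figure D2:**
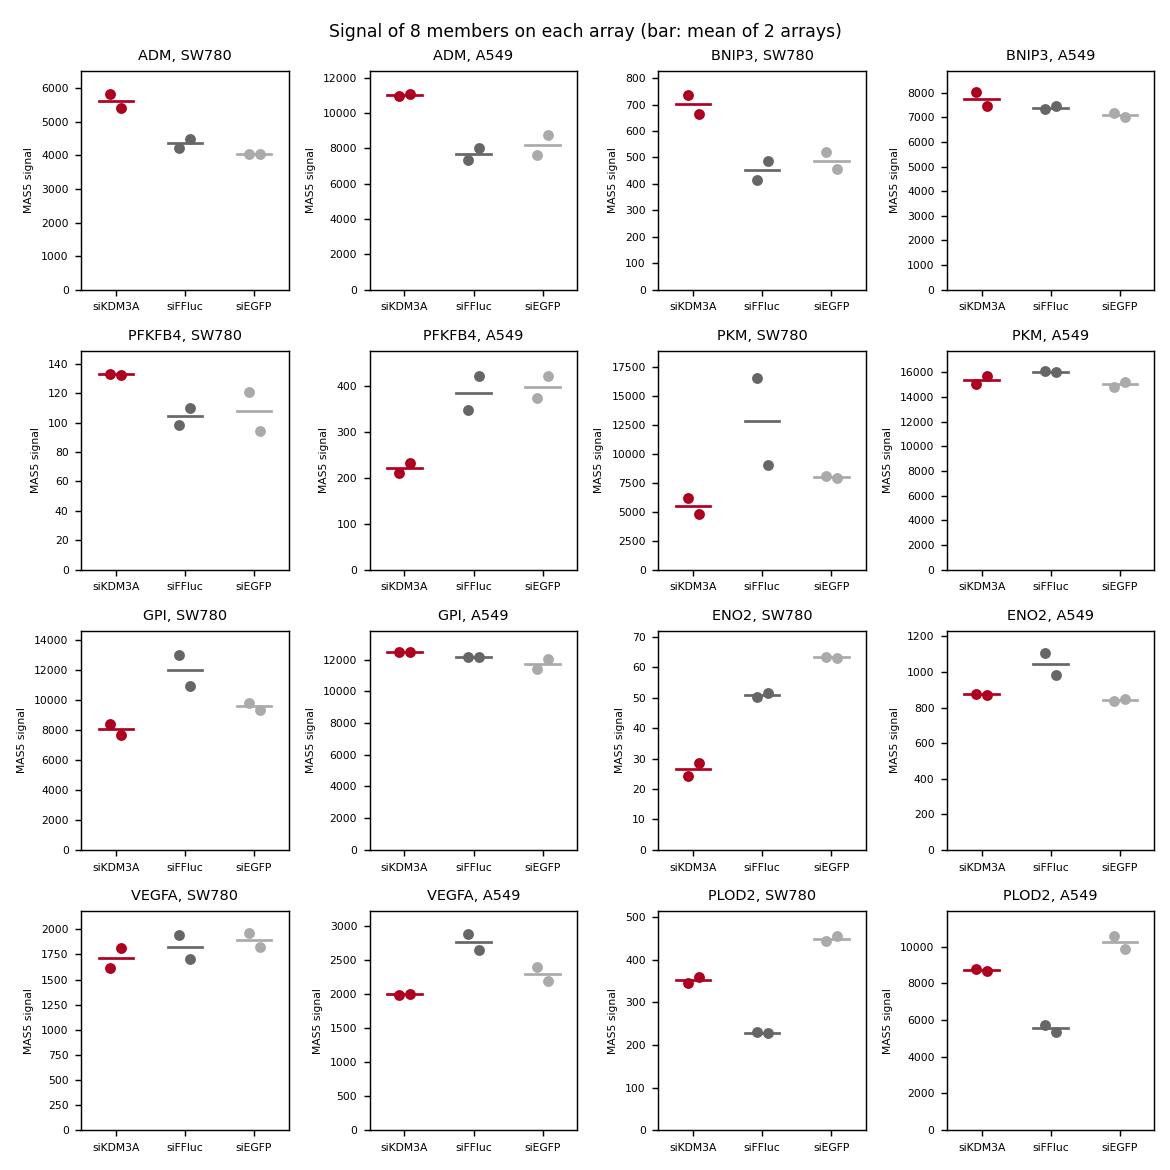
MAS5 signal of 8 members on each array, SW780 beside A549 for each gene. Points are arrays, horizontal bars are means of 2 arrays, and each vertical axis is linear from 0. The siKDM3A arrays of ADM sit above all controls in both lines, those of PFKFB4 sit below them in A549 alone, and PLOD2 is lowest with siFFluc in both.

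The control duplexes target no human gene, and the difference between them shows how far the members moved between duplexes not aimed at KDM3A. The labels name only 1 siRNA against KDM3A. Effects of that siRNA on other targets therefore cannot be told apart from loss of KDM3A. In SW780 siFFluc differed from siEGFP for 9 of 36 members, 8 higher and 1 lower, against 5.57% of all genes (2.97% higher and 2.60% lower). The median over the members was 0.19, against 0.00 over all genes. In A549 it was 3 of 36 members, 2 higher and 1 lower, against 2.92% of all genes (1.43% higher and 1.49% lower). Counting only differences of at least 0.5, it was 4 members in SW780 and 2 in A549, against 2.29% and 1.96% of all genes. The gene that differed most was PLOD2, lysyl hydroxylase of collagen. PLOD2 had 230.3 and 227 with siFFluc in SW780, against 444 and 457 with siEGFP, a difference of -0.93 ± 0.08 (SE, adjusted p = 1.98e-05). In A549 it had 5713 and 5369.8 with siFFluc, against 10591 and 9895.5 with siEGFP, a difference of -0.88 ± 0.08 (SE, adjusted p = 1.97e-05). The duplexes were thus separated in the same direction in both lines, and a second probe set gave -1.10 and -0.89.

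With siKDM3A, PLOD2 had 345 and 359 in SW780 and 8764 and 8675 in A549, which lay between the controls in each line. Its knockdown difference in SW780 therefore took either sign, 0.59 against siFFluc (adjusted p = 3.63e-04) and -0.34 against siEGFP (adjusted p = 0.0192). In A549 the sign of PLOD2 turned too, with 0.65 against siFFluc (adjusted p = 1.37e-04), -0.23 against siEGFP (adjusted p = 0.0837) and 0.21 against both controls (adjusted p = 0.0542).

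NDRG1, a stress-responsive gene induced by low oxygen, had 1041 and 945 with siFFluc in SW780, against 534 and 577 with siEGFP, a difference of 0.82 ± 0.12 (SE, adjusted p = 0.00278). In A549 NDRG1 had 2405 and 2533 with siFFluc, against 1620.2 and 1615 with siEGFP, a difference of 0.60 ± 0.12 (SE, adjusted p = 0.0159). The groups did not overlap in either line, although the A549 call was lost without any one of its 4 control arrays (adjusted p from 0.0819 to 0.134). PFKFB3 in SW780 had 875 and 783 with siFFluc, against 489 and 531 with siEGFP, and differed by 0.68 ± 0.10 (SE, adjusted p = 0.00214). HK1 in SW780 differed by 0.57 ± 0.10 (SE, adjusted p = 0.00742) on the signals given above, with an adjusted p of 0.0837 without siEGFP replicate 2. The remaining calls, singled out after their values were seen, were BNIP3L in A549 (0.41, adjusted p = 0.00293) and, in SW780, GPI, ALDOA, PGK1, ENO1 and LDHA, which differed by 0.28 to 0.47. These 5 are bright glycolysis genes. Differences of at least 0.5 that did not pass were 0.62 for PKM and 0.56 for SLC2A1, a glucose transporter, in SW780 (adjusted p = 0.0899 and 0.109), and 0.64 for ALDOC and 0.51 for SLC2A1 in A549 (adjusted p = 0.109 and 0.250). Under quantile normalization GPI, ALDOA, PGK1, ENO1 and LDHA differed by 0.16, 0.17, 0.10, 0.02 and -0.02, with none past the threshold (adjusted p from 0.0575 to 0.883). Without SW780 siFFluc replicate 1 the adjusted p of these 5 was 0.0568 to 0.223, and without siEGFP replicate 2 it was 0.0967 to 0.272. PLOD2, NDRG1, PFKFB3 and HK1 in SW780 differed by -0.84, 0.85, 0.71 and 0.53 under quantile normalization.

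**Figure D3:**
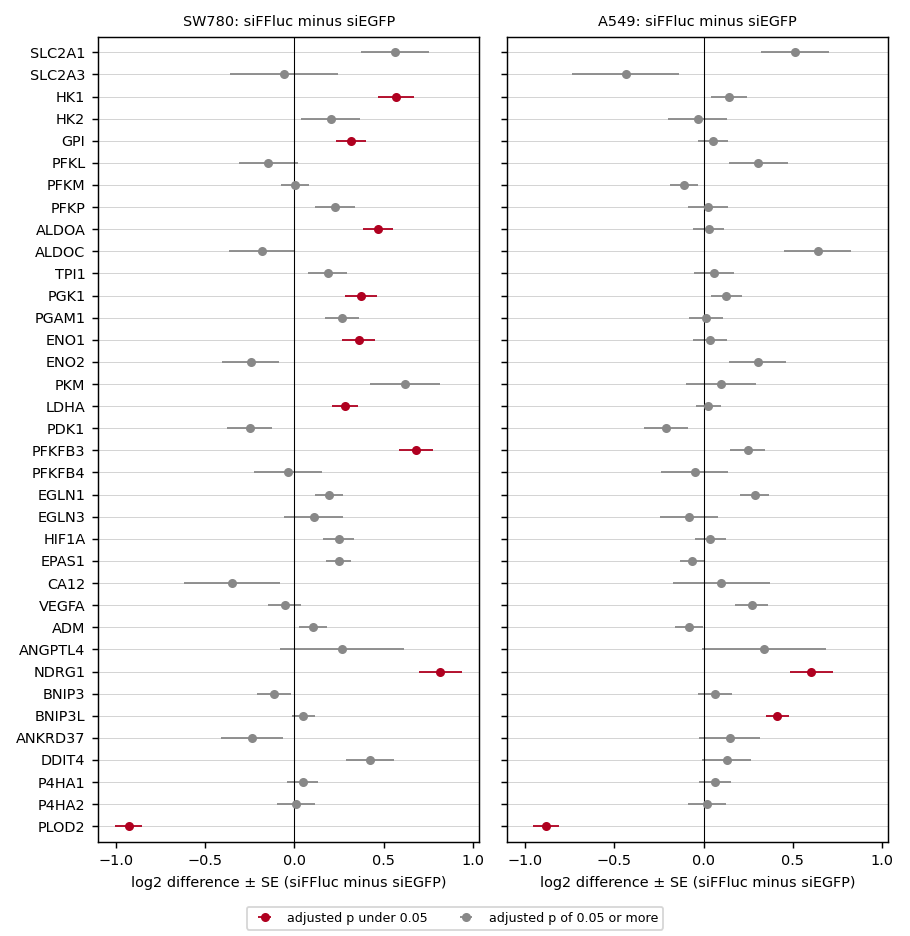
Difference of siFFluc from siEGFP for the 36 members, SW780 on the left and A549 on the right, in log2(signal + 16) with 1 SE. PLOD2 is the lowest point in both lines at -0.93 and -0.88, and in SW780 the bright glycolysis genes lie to the right of 0.

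The larger contrast for these genes was between the lines. On control arrays, 29 of 36 members differed, 9 higher and 20 lower in SW780, against 68.9% of all genes (30.1% higher and 38.8% lower). The median over the members was -0.35, against -0.11 over all genes. With arrays scaled to their medians the median of all genes was 0.09 and the calls over all genes were 5490 higher and 4156 lower, against 4236 and 5453. Under median scaling 11 members were higher and 18 lower with a median of -0.13, and under quantile normalization 6 were higher and 23 lower with a median of -0.43. A difference of at least 1 was found for 15 members, 2 higher and 13 lower, against 26.8% of all genes (10.4% higher and 16.5% lower). Another 16 members differed by less than 0.5, among them most of the glycolytic chain: ALDOA, TPI1, PGK1, PGAM1, ENO1, LDHA, GPI, PFKL and PFKM.

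HK2, the inducible hexokinase, had 1955 and 1282 with siFFluc and 1320.0 and 1430.2 with siEGFP in SW780, against 390.1 and 323 and 386.5 and 342 in A549. All SW780 arrays were above all A549 arrays, by 1.99 ± 0.12 (SE, adjusted p = 4.50e-09). EGLN3, an oxygen sensor that HIF induces, had 585 and 609 with siFFluc and 602 and 506 with siEGFP in SW780, against 149.8 and 118 and 129.9 and 154 in A549. Its difference was 1.94 ± 0.12 (SE, adjusted p = 5.77e-09), likewise without overlap. EGLN1, the main sensor in most cells, ran the other way at 2205 and 2026 and 1738 and 1956 in SW780, against 6285 and 6125 and 5341 and 4845 in A549, a difference of -1.50 ± 0.06 (SE).

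Several HIF targets were near the floor in SW780. CA12, a carbonic anhydrase of the cell surface, had 5.6 and 25 with siFFluc and 12.6 and 34.4 with siEGFP in SW780, against 12847 and 12416 and 12225 and 11354 in A549. SLC2A3, a neuronal-type glucose transporter, had 3.7 and 10.3 with siFFluc and 13.1 and 3.3 with siEGFP in SW780, against 362 and 353 and 482 and 497 in A549. ANGPTL4, a secreted inhibitor of lipoprotein lipase, had 4.1 and 28.3 with siFFluc and 10.4 and 7.3 with siEGFP in SW780, against 315 and 365 and 259 and 271 in A549. For CA12, SLC2A3 and ANGPTL4 nearly all SW780 signals were below the filter level of 33.6. Their differences of -8.51 ± 0.19, -4.23 ± 0.21 and -3.54 ± 0.25 (SE) therefore depend on the 16 that was added. All 7 kept CA12 probe sets were lower in SW780.

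PLOD2 on the control arrays was lower in SW780 by a difference of -4.48 ± 0.05 (SE, adjusted p = 2.71e-15), on the signals given above. BNIP3 differed by -3.91 ± 0.07 (SE), and ENO2, also dim in SW780, by -3.71 ± 0.11 (SE). PFKFB3 had 875 and 783 with siFFluc and 489 and 531 with siEGFP in SW780, against 4812 and 4872 and 4337 and 3836 in A549, a difference of -2.74 ± 0.07 (SE). For each of these genes all SW780 arrays were below all A549 arrays. The differences were -1.74 for PFKFB4, -1.72 for DDIT4, an inhibitor of mTORC1, -1.41 for NDRG1, -1.32 for P4HA2 and -1.08 for PFKP. ADM, called higher with siKDM3A in both lines, was lower in SW780 by a difference of -0.91 ± 0.06 (SE, adjusted p = 7.41e-09). KDM3A itself differed by -1.78 ± 0.08 (SE, adjusted p = 5.14e-10). All 3 collagen genes and all 4 tested genes of the pH and vessel group (CA12, VEGFA, ADM and ANGPTL4) were called lower in SW780, as were 38.8% of all genes.

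**Figure D4:**
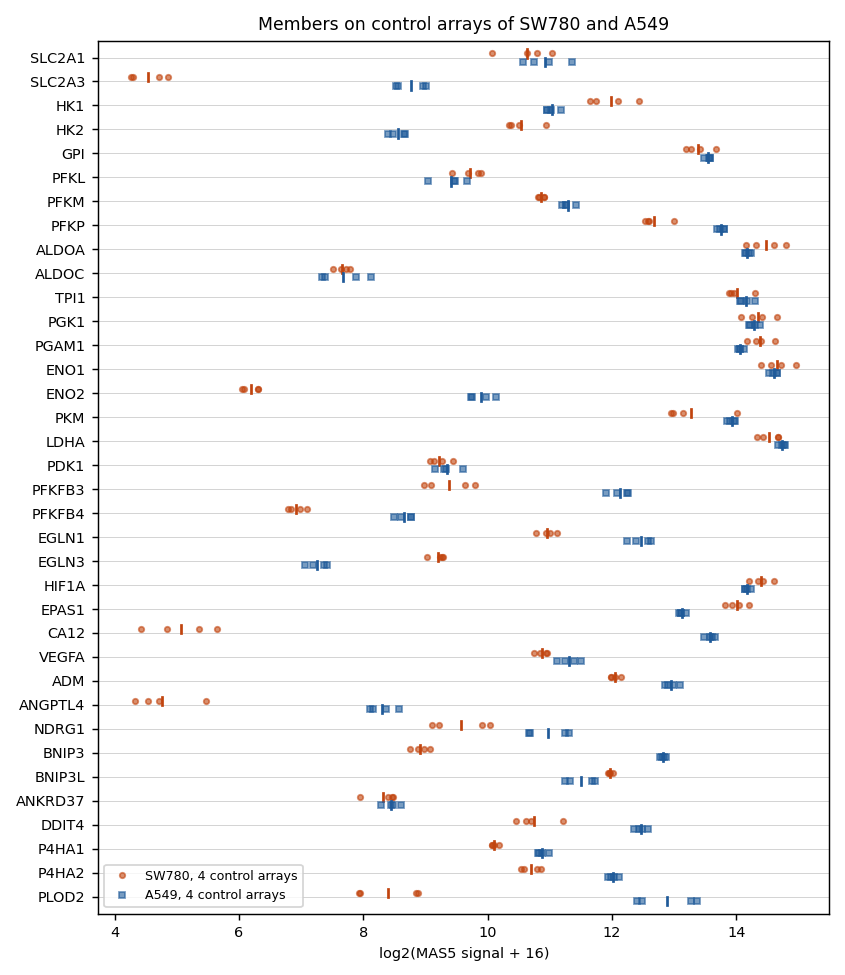
Signals of the 36 members on the control arrays, as log2(signal + 16) on the x axis. Each point is 1 of the 4 control arrays of SW780 or A549. GPI, TPI1, PGK1, ENO1 and LDHA lie close together in the lines, HK2 and EGLN3 lie higher in SW780, and CA12, PLOD2, SLC2A3, BNIP3, ENO2 and ANGPTL4 are separated by over 3 units. Levels of different genes are not comparable, since they come from different probe sets.

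Genes of the same pathways that are not members were read from 3 lists. Of 32 tested genes of the HIF pathway list, 3 were higher and 4 lower with siKDM3A in SW780, and 1 was higher and 1 lower in A549. That is 21.9% and 6.25%, against 11.8% and 11.7% of all genes. WSB1, a HIF-induced ubiquitin ligase subunit, rose in both, by 0.29 ± 0.07 in SW780 (SE, adjusted p = 0.0213) and by 0.25 ± 0.07 in A549 (SE, adjusted p = 0.0435). TFRC, the transferrin receptor, differed by -0.29 ± 0.07 in SW780 (SE, adjusted p = 0.0132) and by -0.63 ± 0.07 in A549 (SE, adjusted p = 7.58e-05). GBE1, the glycogen branching enzyme, differed by -0.34 in SW780 (adjusted p = 0.00405). BHLHE41, a circadian repressor induced by low oxygen, differed by -0.46 in SW780 (adjusted p = 0.0253). CITED2, which competes with HIF for its coactivator, rose in SW780 by 0.40 (adjusted p = 0.0428) and had -0.33 in A549 (adjusted p = 0.0878), a difference of the responses of 0.73 ± 0.17 (SE, adjusted p = 0.0381).

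Of 21 tested genes of the glycolysis list, 2 were higher and 2 lower with siKDM3A in SW780, and 1 was higher and 2 lower in A549, which is 19% and 14.3% against the same shares of all genes. TIGAR, a fructose bisphosphatase that lowers fructose 2,6-bisphosphate, had 2986.5 and 3128.5 with siKDM3A in SW780, against 5922 and 5866 with siFFluc and 6106 and 5959.8 with siEGFP. In A549 TIGAR had 1489 and 1422 with siKDM3A, against 3331 and 3497.5 with siFFluc and 3368.5 and 3773 with siEGFP. The knockdown arrays were far below all controls in both lines. It differed by -0.96 ± 0.06 in SW780 (SE, adjusted p = 2.48e-06) and by -1.25 ± 0.06 in A549 (SE, adjusted p = 1.51e-07). PDK4, a kinase that switches off pyruvate dehydrogenase, rose by 0.65 in SW780 (adjusted p = 0.00696), where it was dim. HKDC1, a hexokinase relative, differed by -0.82 in SW780 (adjusted p = 0.00236). MPC2, a subunit of the mitochondrial pyruvate carrier, rose by 0.26 in SW780 (adjusted p = 0.0134). In A549 PDHB, a pyruvate dehydrogenase subunit, rose by 0.33 (adjusted p = 0.0100) and BPGM, which makes 2,3-bisphosphoglycerate, differed by -0.24 (adjusted p = 0.0331).

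Of 11 tested genes of sugar entry and glucose sensing 2 were called in SW780 and 1 in A549. That is 18.2% and 9.09%, against 11.8% and 11.7% of all genes. TXNIP rose in both lines, by 0.24 ± 0.07 in SW780 (SE, adjusted p = 0.0291) and by 0.37 ± 0.07 in A549 (SE, adjusted p = 0.00287). TXNIP restrains glucose uptake and is induced by glucose. MLXIP, a glucose-sensing transcription factor, differed by -0.49 in SW780 (adjusted p = 0.0196).

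Between the lines on control arrays, 28 of 32 genes of the HIF pathway list, 19 of 21 of the glycolysis list and 9 of 11 of the sugar list were called, against the 68.9% of all genes. TXNIP was higher in SW780 by 1.92 ± 0.05 (SE, adjusted p = 2.64e-12) and its relative ARRDC4 by 1.88 ± 0.12 (SE, adjusted p = 9.47e-09). GALK1, galactokinase, was lower in SW780, by a difference of -2.26 ± 0.25 (SE, adjusted p = 2.75e-06). PGM2, a phosphoglucomutase family enzyme, was higher in SW780 by 1.49 and SLC2A10, a glucose transporter family member, by 4.57, its A549 signals being at the floor. Of the HIF pathway list, BHLHE41 was higher in SW780 by 3.96, while LOXL2, a collagen cross-linking enzyme, differed by -5.62, ARNT2 by -3.16, AK4 by -2.91, MXI1 by -2.39 and HMOX1, haem oxygenase, by -2.26. The others of that list past a difference of 1 were INSIG2 and RIOK3, higher by 1.28 and 1.03, and PPP1R3C, STC2, BHLHE40 and LOX, which differed by -1.56, -1.46, -1.34 and -1.05. MPC1, the partner of MPC2, was higher in SW780 by 1.96 and BPGM by 1.41, and PDK4, HKDC1 and ENO3 differed by -4.42, -2.40 and -1.78.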

How the data were processed

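RNA of the 12 samples was hybridised to Affymetrix U133 Plus 2.0 arrays, and the authors deposited a table of intensity values for 54675 probe sets, MAS5 signals per the submitters' processing notes. For the version of MAS5, the sources used here give nothing. The mean of every array, without 2% at each end, was 500.1, so the deposited signals had been scaled to a common target, and no detection calls were used. The 62 control probe sets were removed. Of the other 54613, 41091 carried 1 gene symbol, 1801 several and 11721 none in an annotation of 2016, and 41037 were matched to current symbols in a RefSeq gene table. Probe sets with a mean signal of at least 33.6 (the 40th percentile) were kept, 32768 in all, and the one of highest mean signal stood for each of 14061 genes. Of the members' 82 probe sets 77 were kept, and 21 members had more than 1.

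Signals were taken as log2(signal + 16) and fitted with 6 group means, all 12 arrays sharing the spread, in R 4.3.3 with limma 3.58.1 (eBayes, trended prior). Contrasts were siKDM3A minus the mean of both controls in each line, the difference of these between lines, siFFluc minus siEGFP, and SW780 minus A549 on control arrays. P-values were adjusted over all genes by the Benjamini-Hochberg method, and 0.05 was the threshold. Promoters and figures were handled in Python 3.11.15 with matplotlib 3.10.9. The fit was also run on simulated data with independent noise for each gene and array. Those data hold no shift shared by the genes of an array, so they cannot show its effect on the calls. Alternatives were the added constant, the filter, quantile and median scaling, the replicate block, each line alone, the mean over probe sets, 1 control at a time, and each array left out.

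All 38 members are accounted for. Members were named with values where past the threshold in a siKDM3A comparison or in the difference of the responses, or where past it with a difference of at least 1 (log2) between lines or of at least 0.5 between control siRNAs. Genes of the other lists were named where past the threshold in a siKDM3A comparison, at most 4 by smallest p, or different by at least 1 between lines. The members and lists were chosen with earlier results of these data known.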

Additional observations from a re-analysis of the deposited data

Results flagged for a closer look

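The siKDM3A response of GPI, the glucose-6-phosphate isomerase, differed between the lines by the test of the difference itself, -0.48 ± 0.10 (SE, SW780 minus A549, limma adjusted p = 0.0325). Both knockdown arrays were below all 4 controls in SW780 and above all 4 in A549. The response of PFKFB4 differed by 1.07 ± 0.23 (SE, limma adjusted p = 0.0339), with both knockdown arrays above all 4 controls in SW780 and below all 4 in A549. By limma the GPI difference in A549 (0.07, adjusted p = 0.636) and the PFKFB4 difference in SW780 (0.29, adjusted p = 0.293) were not called. Neither difference of the responses was past the threshold without the filter on dim probe sets or against siEGFP alone.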

How the results depend on the processing

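The calls of ADM in both lines, BNIP3 in SW780 and PLOD2 between the control duplexes in both lines held in every alternative run. Others depended on a choice, and the cause was not tested. Members called with siKDM3A in SW780, 9 as reported (2 higher and 7 lower), were 4 with the SW780 arrays alone (2 higher and 2 lower). They were 15 against siFFluc alone (4 higher and 11 lower) and 6 against siEGFP alone (4 higher and 2 lower). In A549 the count, 6 as reported, was 9 with the A549 arrays alone (4 higher and 5 lower). The difference of the responses, 2 as reported, gave 0 without the filter, 5 under quantile normalization, 5 under median scaling, 0 against siEGFP alone and 1 against siFFluc alone. The count of siFFluc against siEGFP in SW780, 9 as reported, was 5 without the filter, 4 under quantile normalization and 3 with the line alone.

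Leaving out 1 array gave 1 to 8 members with siKDM3A in A549, 5 to 12 in SW780, 0 to 5 for the difference of the responses, 2 to 4 between the control duplexes in A549, 3 to 18 in SW780, and 28 to 29 between the lines. In A549 the count was 1 without either siKDM3A array, and in SW780 it was 5 without siKDM3A replicate 2. Between the control duplexes in SW780 it was 18 without siFFluc replicate 2, 4 without siFFluc replicate 1, 3 without siEGFP replicate 2 and 5 without either A549 siKDM3A array. The difference of the responses gave 0 without any one siKDM3A array, without A549 siEGFP replicate 1 or without either A549 siFFluc array, 1 without any other siEGFP array, and 4 or 5 without SW780 siFFluc replicate 1 or 2.

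PLOD2 with siKDM3A reversed against siEGFP alone, to -0.34 in SW780 and, not past the threshold, to -0.23 in A549. LDHA between the control duplexes in SW780 reversed to -0.0185 under quantile normalization. Between the lines, GPI and LDHA reversed to 0.0656 and 0.0153 under median scaling, and HIF1A to -0.0100 under quantile normalization. Over all genes, same-numbered arrays of different groups in a line did not deviate together, with correlations from -0.03 to 0.02. Such a correlation cannot exclude a shift shared by part of the genes. In SW780 the median of the 500 brightest probe sets was higher on replicate 1 in every group. Whether the numbers pair the arrays is therefore not settled. With the replicate number as a block the members called were 6 in A549, 10 in SW780, 4 for the difference of the responses, 3 and 13 between the control duplexes in A549 and SW780, and 29 between the lines.

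Over all genes, the 1642 calls with siKDM3A in A549 became 2616 with that line alone, and the 1663 in SW780 became 852 with that line alone and 871 against siEGFP alone. The 387 for the difference became 214 without the filter, 770 under median scaling (147 higher and 623 lower, against 250 and 137), 238 with the block, 154 with the mean over probe sets and 77 against siEGFP alone. The 783 between the control duplexes in SW780 became 444 under quantile normalization and 148 with that line alone, and 634 higher and 256 lower under median scaling, against 418 and 365. Leaving out 1 array moved these counts, and so the shares of all genes given as background, from 524 to 2379 in A549 (lowest without siKDM3A replicate 2), from 737 to 2605 in SW780 (lowest without siKDM3A replicate 1, highest without siFFluc replicate 2), from 41 to 951 for the difference, from 176 to 583 between the A549 control duplexes, and from 184 to 1928 between the SW780 control duplexes (lowest without siEGFP replicate 2, highest without siFFluc replicate 2). MAS5 signals near the filter level carry little information, which limits ENO2, CA12, SLC2A3 and ANGPTL4 in SW780.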
